A study of Mus musculus with 10 samples.

Results

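Enox1, Chrna9, Hdhd1a, Adam23, Manba, Mkrn1, Dab1, Esrp1 and Zmat4 are 9 of the 33006 genes in the count table and 9 of the 13522 that passed the expression filter. They were chosen by their RNA counts in the libraries described here, which were lower after auxin, and for Dab1, Esrp1 and Zmat4 the histone mark H3K27me3 at the 5′ end also had part in the choice. Their levels and fold changes are therefore given as a description, with no test. Tests are given for other genes: the relatives and pathway partners of the 9 genes, and the genes beside them on the chromosome. The lists of relatives were drawn up with earlier results of these data known. Since the 9 were chosen for their falls, a smaller change in other genes follows from the choice and is not a result.

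The study asks what the histone chaperone NPM1 does for repressed chromatin as mouse embryonic stem cells (mESCs) copy their genome. The cells were of the E14 line, a mouse line kept undifferentiated in culture, with an NPM1 protein that can be degraded on demand. All groups were grown with LIF and with inhibitors of MEK1/2 (PD0325901, 1 µM) and GSK3 (CHIR99021, 3 µM), so the MEK inhibitor was present in the controls too. Cells were brought to G1 and let go, and RNA was read at 12 h from 2 libraries without auxin and 2 libraries with auxin, the plant hormone that sends a degron-tagged protein to the proteasome. The column headers mark all 4 RNA libraries with the same tag, C38, which the sources used here do not explain. H3K27me3 came from cells not given auxin, as 1 ChIP-seq sample and 1 CUT&RUN control sample at 12 h. The ChIP-seq sample is titled 6 h, whereas the series design gives 12 h after release for all assays, and the title is followed here. The other 4 samples (input, IgG, auxin, and auxin with a PRC2 inhibitor) were not analysed here.

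The 9 genes belong to no single pathway. Enox1 encodes a cell-surface oxidase that passes electrons from NADH and hydroquinones. Chrna9 encodes a nicotinic acetylcholine receptor subunit best known from cochlear hair cells. Adam23 encodes a member of the ADAM family that has lost protease activity and binds LGI proteins on neurons. Hdhd1a, now named Pudp, and Manba encode enzymes of breakdown, a phosphatase of pseudouridine monophosphate and the lysosomal β-mannosidase. Mkrn1 encodes a RING ubiquitin ligase that also binds RNA. Dab1 encodes the adaptor that reelin receptors use inside neurons, Esrp1 a regulator of epithelial splicing, and Zmat4 a protein with matrin-type zinc fingers. H3K27me3 is placed by Polycomb repressive complex 2 and in embryonic stem cells typically covers CpG-rich starts of silent developmental genes.

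Stretches of sequence just upstream of the RefSeq starts are shown because the genes differ in CpG content and in the mark at these places. They come from RefSeq on GRCm38.p6 (the mm10 build), run 5′ to 3′ on the gene's strand, and carry each CpG in capitals. RefSeq windows were given for 6 of the 9 genes, 8 windows in all, and there was no entry for Hdhd1a, Esrp1 or Zmat4. The Enox1 stretch lies at chr14:77156513-77156762, plus strand, and the Adam23 stretch at chr1:63445641-63445890, plus strand. Both end at the annotated 5′ end of their gene and are dense in CpG. The Chrna9 stretch at chr5:65966874-65967123, plus strand, has few CpG. The Dab1 stretch at chr4:103619250-103619358, plus strand, is the only one that lies under an H3K27me3 peak.
Enox1: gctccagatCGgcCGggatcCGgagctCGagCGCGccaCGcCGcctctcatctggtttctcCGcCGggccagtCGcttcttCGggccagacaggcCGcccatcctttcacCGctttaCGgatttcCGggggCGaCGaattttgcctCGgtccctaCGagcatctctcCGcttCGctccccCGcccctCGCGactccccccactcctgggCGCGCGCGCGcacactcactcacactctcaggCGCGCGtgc
Adam23: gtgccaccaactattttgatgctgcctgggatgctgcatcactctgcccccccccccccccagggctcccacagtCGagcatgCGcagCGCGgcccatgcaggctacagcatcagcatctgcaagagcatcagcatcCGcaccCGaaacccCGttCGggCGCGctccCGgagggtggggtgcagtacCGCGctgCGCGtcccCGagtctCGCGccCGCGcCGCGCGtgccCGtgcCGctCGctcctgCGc
Chrna9: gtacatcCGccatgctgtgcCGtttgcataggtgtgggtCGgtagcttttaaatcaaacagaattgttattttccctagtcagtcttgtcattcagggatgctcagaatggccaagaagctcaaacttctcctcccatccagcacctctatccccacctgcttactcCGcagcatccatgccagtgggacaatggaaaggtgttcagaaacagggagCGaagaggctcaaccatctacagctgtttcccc
Dab1: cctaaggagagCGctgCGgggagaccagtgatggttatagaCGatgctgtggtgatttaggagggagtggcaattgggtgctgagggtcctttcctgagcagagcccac

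Library totals ran from 13353446 to 16046290 counts, and mitochondrial transcripts took 3.46% to 4.96% of them. All 8 embryonic stem cell markers were detected, with a summed level of 5925 to 6125 CPM without auxin and 5427 to 5546 CPM with auxin (CPM, the counts scaled to TMM-adjusted library size). Against that sum, Nanog went from 842 and 832 to 1066 and 1034 CPM. Markers of other cell types were low, but some sums were higher with auxin. The 7 primitive endoderm markers summed to 15.5 to 18.0 CPM without auxin and 24.8 to 27.7 CPM with auxin, and the 7 neural markers to 115.8 to 118.9 and 134.0 to 135.1 CPM. The 8 fibroblast markers, 4 of them under 1 CPM in every library, summed to 8.27 to 8.57 and 11.3 to 11.7 CPM. Of 6 trophoblast markers 1 was at 0 in all libraries and the sums were 90.6 to 93.8 and 100.5 to 101.1 CPM, but single markers moved in opposite ways. Tfap2c went from 23.0 and 21.0 to 54.1 and 49.3 CPM, Gata3 from 6.67 and 8.48 to 15.0 and 17.7 CPM and Cdx2 from a mean of 4.48 to 10.9 CPM, while Eomes went from 56.1 and 58.2 to 19.3 and 21.7 CPM. Sox7, a primitive endoderm marker, did not follow the sum of its set (0.773 and 1.63 CPM without auxin, 0.885 and 0.594 CPM with auxin). Among the neural markers Sox1 was lower with auxin (13.0 and 16.4 against 7.52 and 9.68 CPM), against the sum. Their part in the results below was not tested. In bulk RNA, fewer cells that express a gene and less RNA per cell cannot be told apart. The labels do not say that replicates were separate cultures, so a p-value here sets the difference against the spread of these libraries only, and that spread may be technical.

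All 9 genes were lower with auxin, from 9.63-fold for Enox1 to 1.92-fold for Mkrn1, and their median log2 fold change was −1.57, against 0.01 over all tested genes. Both auxin libraries stood below both libraries without auxin for each of the 9, which is also true of 31.8% of tested genes. The rule used this contrast, so nothing is read from that count. Among tested genes, 163 were lower by at least 1 on the log2 scale, and 8 of the 9 were among them. The exception was Mkrn1, which ranked 185 from the steepest fall. Etv4 (log2 fold change −3.73, rank 2) and Rgs20 (−3.08, rank 4) stood on either side of Enox1 in that order. Gm22571 (−0.95, rank 184) and Nrcam (−0.94, rank 186) stood on either side of Mkrn1.

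**Figure D1:**
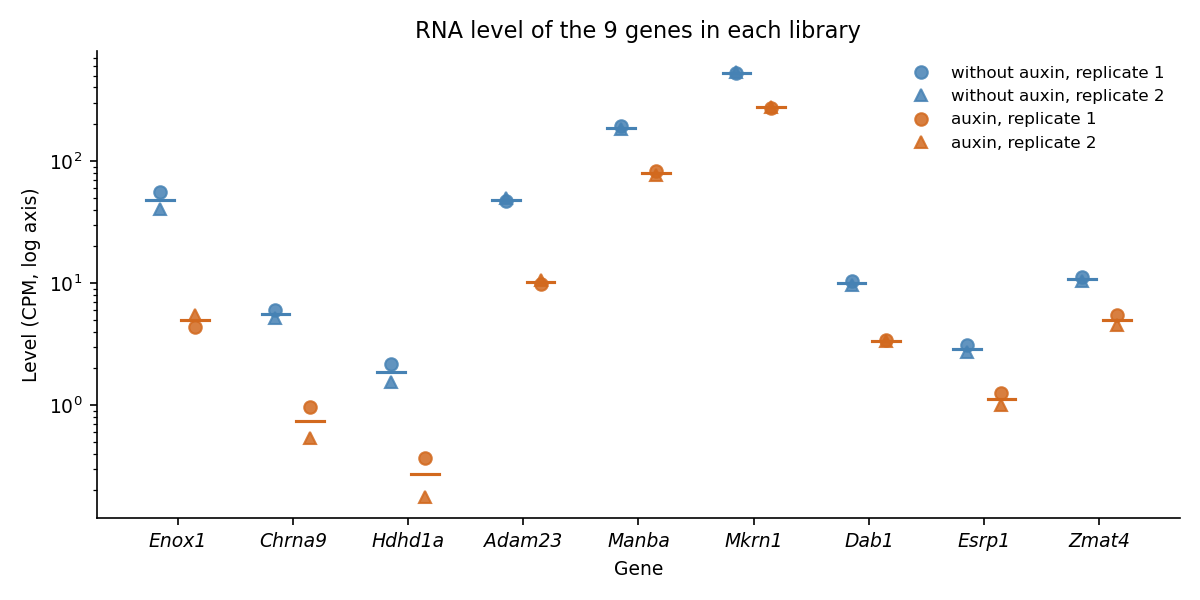
RNA level of each gene in CPM on a log axis, with circles for replicate 1, triangles for replicate 2 and a bar at the mean of 2 libraries. Both auxin libraries lie below both libraries without auxin for every gene, and the replicate points stand farthest apart for Hdhd1a and Chrna9 with auxin.

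Among the surface proteins, Enox1 had the largest fold change of the 9. Its level was 56.0 and 40.3 CPM without auxin and 4.35 and 5.52 CPM with auxin. The groups lay far apart, although the first library without auxin was 1.39 times the second. The fitted log2 fold change was −3.27 (SE 0.18), and the 4 ratios between single libraries ran from 7.30 to 12.9. Enox1 dropped from the 67.9th to the 21.4th percentile of tested genes in level per kb of exon.

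Chrna9 was a weakly expressed gene that came close to the limit of detection with auxin. Its counts were 86 and 76 without auxin, then 13 and 9 with it, or 6.04 and 5.15 CPM against 0.959 and 0.535 CPM. The auxin libraries were both under 1 CPM and differed from each other by 1.79 times. The log2 fold change was −2.93 (SE 0.30), with single-library ratios from 5.38 to 11.3. Genes that define hair cells were low: Pou4f3 was between 0.369 and 1.15 CPM and Atoh1 between 0.664 and 1.37 CPM over the 4 libraries.

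Adam23 was among the most evenly measured. Its level was 47.1 and 49.4 CPM without auxin and 9.88 and 10.7 CPM with auxin. Replicates differed by 1.05 times without auxin and 1.08 times with auxin, against a difference between groups of 4.68-fold (log2 fold change −2.23, SE 0.10). In CPM, Adam23 and Enox1 could not be separated without auxin (48.3 ± 1.62 and 48.2 ± 11.1, SD, n = 2), while with auxin Adam23 held the higher level in both libraries.

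Of the enzymes, Hdhd1a rested on the fewest fragments. Its counts were 31 and 23 without auxin, then 5 and 3 with it, which is 2.18 and 1.56 CPM against 0.369 and 0.178 CPM. The groups did not overlap, but the auxin libraries differed by 2.07 times. Its log2 fold change of −2.78 therefore had the widest error of the 9 (SE 0.47), and single-library ratios spread from 4.23 to 12.2.

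Manba, in contrast, was read from many more fragments, 1117 or more per library. It stood at 192 and 182 CPM without auxin and at 82.4 and 77.0 CPM with auxin. Replicates were within 1.07 times of each other in both groups. The log2 fold change was −1.23 (SE 0.06), or 2.35-fold lower.

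Mkrn1 was the most abundant of the 9 and had the smallest fold change and the smallest error. It was at 524 and 536 CPM without auxin and at 273 and 278 CPM with auxin. Both groups were tight, with replicates within 1.02 times of each other. The log2 fold change was −0.94 (SE 0.05), and single-library ratios ran only from 1.89 to 1.96. Mkrn1 was still at the 93.5th percentile of tested genes with auxin, from the 96.7th without.

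Dab1 was expressed at a low level in these stem cells. It stood at 10.4 and 9.63 CPM without auxin and at 3.39 and 3.33 CPM with auxin. The auxin libraries were nearly equal. The log2 fold change was −1.57 (SE 0.17), or 2.98-fold lower.

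Esrp1 was the weakest of the RNA-binding members. Its counts were 44 and 40 without auxin and 17 in each auxin library, or 3.09 and 2.71 CPM against 1.25 and 1.01 CPM. The log2 fold change was −1.36 (SE 0.29). Zmat4 stood at 11.2 and 10.3 CPM without auxin and 5.46 and 4.57 CPM with auxin, and its groups were apart by more than the replicates differed. Its log2 fold change was −1.11 (SE 0.16).

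**Figure D2:**
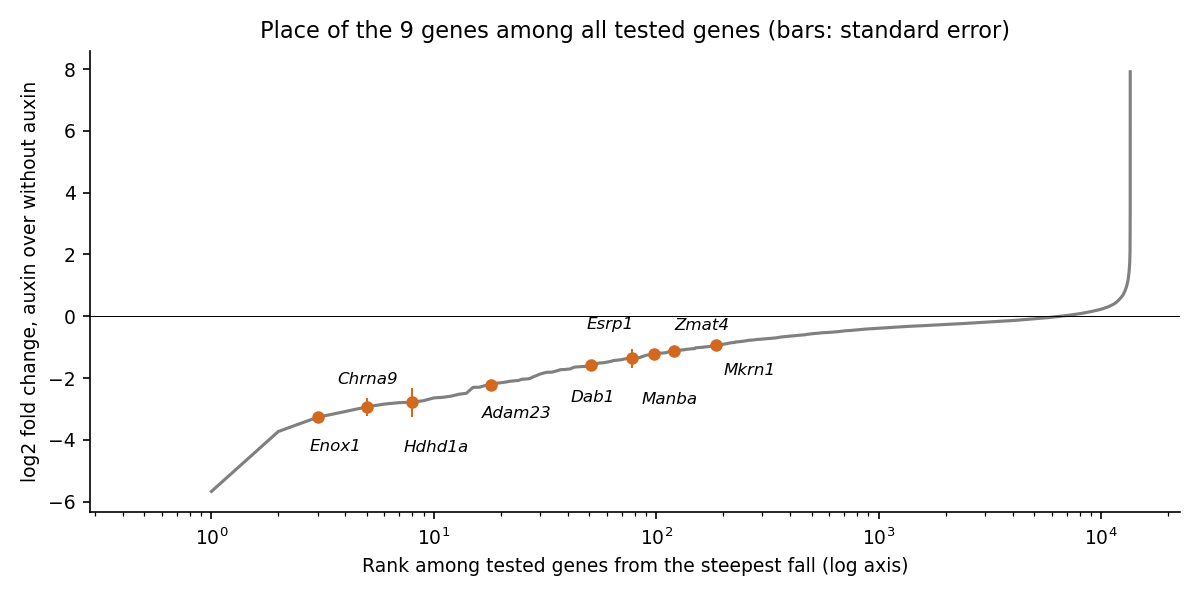
Fitted log2 fold change of all 13522 tested genes (grey line), in order from the steepest fall on a log axis of rank, with the 9 genes as points and their standard errors as bars. Enox1 is at rank 3 and Mkrn1 at rank 185, and Hdhd1a has the longest bar.

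Scaled to exon length, the order of the levels changed with auxin. Without auxin it was Mkrn1 (119 CPM per kb), Manba (26.8), Enox1 (13.8), Adam23 (4.40), Chrna9 (1.85), Hdhd1a (1.79), Zmat4 (1.78), Dab1 (1.27) and Esrp1 (0.460). Chrna9, Hdhd1a and Zmat4 did not differ beyond their replicates in that order, since their libraries spanned 1.71 to 2.00, 1.49 to 2.09 and 1.71 to 1.86 CPM per kb. With auxin it was Mkrn1 (62.1 CPM per kb), Manba (11.4), Enox1 (1.41), Adam23 (0.937), Zmat4 (0.831), Dab1 (0.425), Hdhd1a (0.262), Chrna9 (0.247) and Esrp1 (0.179). Here the libraries of Adam23 and Zmat4 overlapped (0.900 to 0.973 and 0.758 to 0.904 CPM per kb). Those of Hdhd1a (0.171 to 0.353), Chrna9 (0.177 to 0.318) and Esrp1 (0.160 to 0.199) overlapped as well. The median tested gene had 6.35 CPM per kb without auxin, so only Mkrn1, Manba and Enox1 were above it.

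By profile over the 4 libraries, the nearest tested genes were found from the distance between log2 CPM values centred on each gene's own mean. For Enox1 they were Etv4 (distance 0.63 on the log2 scale) and Utf1 (0.64), for Chrna9 Dusp6 (0.18) and Ptgs1 (0.41), and for Hdhd1a Ddx58 (0.30) and Ptgs1 (0.32). For Adam23 they were Soga3 (0.09) and Dusp4 (0.13), for Manba Casq2 (0.09) and B3gnt7 (0.10), and for Mkrn1 Dnmt3b (0.09). For Dab1 they were Hist1h3a (0.07) and Slc39a14 (0.09), for Esrp1 Gm24494 (0.09) and Btla (0.11), and for Zmat4 Trib1 and Spred1 (0.06 each). The nearest profile to Enox1 lay farther off than that of any other of the 9. Soga3, for example, had 18.6 and 18.4 CPM without auxin and 3.69 and 3.80 CPM with auxin, much the shape of Adam23 at a lower level. With 4 libraries in 2 groups, nearness mostly reflects a fold change of like size.

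The relatives of the 9 genes were set against all tested genes, since a gap to the 9 follows from the choice. Over 13 lists of family members and pathway partners, 124 of the 146 genes other than the 9 were tested. By edgeR's quasi-likelihood test with Benjamini-Hochberg adjustment over all tested genes, 30 rose (24.2%) and 13 fell (10.5%). That left 81 not called, and the median log2 fold change was 0.05. Of the 30 that rose, 12 were among the 23 tested genes of the lysosomal list. Over all tested genes 13.0% rose and 14.5% fell (1759 and 1964 genes). The count of genes that fell was 1257 without no-auxin replicate 1. The lowest log2 fold change among the 124 was −0.60 (Reln, not called).

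**Figure D3:**
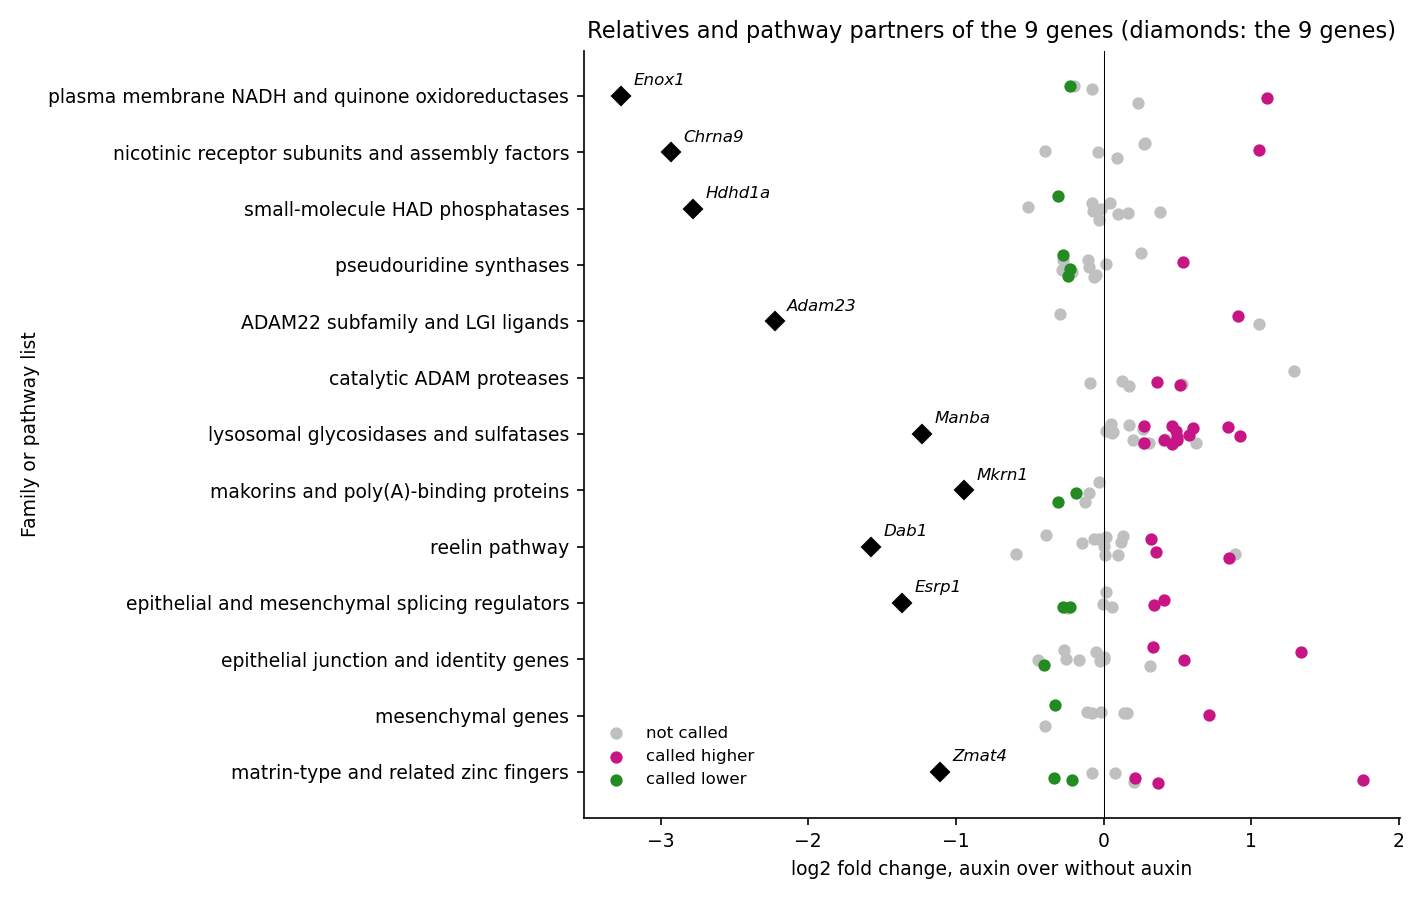
Fitted log2 fold change of each tested gene in the 13 lists, 1 row per list, with diamonds for the 9 genes and dots for their relatives, coloured by the edgeR call. Every diamond lies left of every dot in its row, which the choice of the 9 favoured, and the dots of the lysosomal row all lie right of 0.

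Enox1 was listed with plasma membrane NADH and quinone oxidoreductases. Its closest relative Enox2 was measured at 13.7 and 11.9 CPM without auxin and 11.5 and 10.9 CPM with auxin, and was not called (log2 fold change −0.20, edgeR adjusted p = 0.295). Of 5 others tested, 1 rose, 1 fell and 3 were not called. Nqo1, a cytosolic quinone reductase, rose from 78.0 and 79.5 to 181 and 158 CPM (edgeR adjusted p = 2.4e-06, log2 fold change 1.11, SE 0.07). Cyb5r3, an NADH-dependent cytochrome b5 reductase, fell by 0.22 on the log2 scale (edgeR adjusted p = 0.00742).

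Chrna9 had little company. Only 6 of the 17 other subunits and assembly factors passed the filter, and Chrna10, which forms receptors with Chrna9 in hair cells, had at most 6 counts in any library and was not tested. Of the 6, 1 rose and 5 were not called. The one that rose was Chrna4, a subunit of the common brain receptor, at 3.09 and 3.86 CPM without auxin and 5.60 and 8.67 CPM with auxin (log2 fold change 1.05, edgeR adjusted p = 0.00757). That call was lost without auxin replicate 2 (adjusted p = 0.0672).

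Around Adam23, the inactive subfamily and its ligands gave 3 tested genes of 6. Adam11, another ADAM without protease activity, rose from 5.48 and 6.31 to 9.66 and 12.4 CPM (edgeR adjusted p = 0.00282, log2 fold change 0.91, SE 0.17). Adam22, which binds the same LGI ligands, was not called (log2 fold change −0.29, edgeR adjusted p = 0.197). Without auxin replicate 2, 2 of the 3 rose. Of 7 tested ADAM genes with protease activity, 2 rose and none fell: Adam19 (log2 fold change 0.52, edgeR adjusted p = 0.000532) and Adam10, the main shedding protease of many cells (0.36, 0.00249). The log2 fold changes of these 10 tested relatives of Adam23 ran from −0.29 to 1.29.

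Hdhd1a belongs to the HAD phosphatases, enzymes that take phosphate from small molecules. Of 10 tested relatives, none rose, 1 fell and 9 were not called, and the median log2 fold change was −0.03. The one that fell was Lhpp (−0.31, edgeR adjusted p = 0.0108), a call lost without no-auxin replicate 1 (adjusted p = 0.103). Because Hdhd1a acts on pseudouridine monophosphate, the 13 pseudouridine synthases were counted too. Of them 3 fell, 1 rose and 9 were not called, with a median of −0.11. Without no-auxin replicate 2, 1 fell and none rose. Dkc1, the catalytic subunit of the box H/ACA particles, fell from 282 and 276 to 236 and 236 CPM (log2 fold change −0.24, edgeR adjusted p = 0.00393). The calls of Pus7, Pus10 and Pus7l were each lost when single libraries were left out (adjusted p up to 0.174, 0.209 and 0.242).

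Manba went against the other lysosomal hydrolases. All 23 other lysosomal hydrolases on the list, most of them glycosidases and sulfatases, were tested. Of them 12 rose (52.2%, against 13.0% of all tested genes), 11 were not called and none fell. Every one of the 23 had a positive log2 fold change, with a median of 0.41. Gaa, the acid α-glucosidase, rose from 169 and 187 to 251 and 254 CPM (edgeR adjusted p = 0.000149, log2 fold change 0.50, SE 0.06). Glb1, the acid β-galactosidase, rose from 95.9 and 92.3 to 134 and 131 CPM (0.49, SE 0.06, 0.000165). Idua, the α-iduronidase, also rose (log2 fold change 0.84, edgeR adjusted p = 0.00148). Man2b1, the lysosomal α-mannosidase that works on the same glycans as Manba, was not called (109 and 128 CPM against 115 and 132 CPM, edgeR adjusted p = 0.599). Over the alternatives 9 to 18 of the 23 rose and none fell. The count was 9 with DESeq2 and 18 with the replicate block, and it was 10 to 13 when each library was left out in turn. All 23 were positive in these settings, except for 21 without no-auxin replicate 1 and 22 without either auxin library. The sums of primitive endoderm and neural markers given above were higher in the same libraries, and their part in the lysosomal values was not tested.

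Mkrn1 was listed with the other makorins. Mkrn2 was at 33.2 and 34.4 CPM without auxin and at 34.4 and 31.8 CPM with auxin (log2 fold change −0.03, edgeR adjusted p = 0.816). Mkrn3 was near 5 CPM in all libraries (−0.12, edgeR adjusted p = 0.677). Makorin-1 binds poly(A)-binding proteins, so their genes were on the same list. Pabpc4 fell from 325 and 341 to 263 and 275 CPM (log2 fold change −0.31, edgeR adjusted p = 0.00138). Pabpc1 fell by 0.19 on the log2 scale (edgeR adjusted p = 0.0127), a call lost without no-auxin replicate 1 (adjusted p = 0.0720).

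For Dab1, the pathway from ligand to effector was largely uncalled. The ligand Reln was between 0.811 and 2.11 CPM (log2 fold change −0.60, edgeR adjusted p = 0.297). The receptor genes Vldlr (0.89, edgeR adjusted p = 0.0901) and Lrp8 (−0.39, edgeR adjusted p = 0.168) did not pass the threshold either. Of the 15 partners tested, 3 rose, none fell and 12 were not called, and the median log2 fold change was 0.02. Without auxin replicate 1, 5 rose. Cul5, whose ubiquitin ligase complex removes phosphorylated DAB1, rose by 0.32 on the log2 scale (edgeR adjusted p = 0.00203), and Yes1, a Src-family kinase, by 0.36 (edgeR adjusted p = 0.00498). The third was Dab2, the other mammalian disabled gene, which rose from 4.78 and 6.58 to 9.81 and 10.7 CPM (edgeR adjusted p = 0.00474, log2 fold change 0.85, SE 0.18). Dab2 is also 1 of the 7 primitive endoderm markers whose sum was higher with auxin. Its own counts are part of that sum, so the sum gives no separate view of Dab2. The part of such cells in its rise was not tested.

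Esrp1 and its paralog Esrp2 had opposite signs. Esrp2 was at 11.9 and 13.6 CPM without auxin and 15.9 and 17.9 CPM with auxin (log2 fold change 0.41, edgeR adjusted p = 0.0324). Its call was lost without no-auxin replicate 1 (adjusted p = 0.162), without auxin replicate 2 (0.173) and with DESeq2 (0.178). Among all 8 other splicing regulators tested, 2 rose, 2 fell and 4 were not called. Without no-auxin replicate 1 none rose and 1 fell, as Mbnl2 (adjusted p = 0.0841) and Hnrnpm (0.0998) lost their calls too, and without auxin replicate 2 or with DESeq2 1 rose. Ptbp1, a repressor of many exons, fell from 1301 and 1328 to 1090 and 1084 CPM (edgeR adjusted p = 0.00138). Of 13 tested epithelial genes, 3 rose and 1 fell (2 fell without auxin replicate 2). Cdh1, the adhesion protein E-cadherin, rose from 716 and 754 to 916 and 939 CPM (log2 fold change 0.34, edgeR adjusted p = 0.000608), and the tight-junction gene Cldn4 rose by 0.54 (edgeR adjusted p = 0.000803). The protease inhibitor gene Spint2 fell by 0.41 on the log2 scale (edgeR adjusted p = 0.000931). Of 8 tested mesenchymal genes, Snai1, which encodes a repressor of Cdh1, rose by 0.72 (edgeR adjusted p = 0.00201) and the intermediate filament gene Vim fell by 0.33 (edgeR adjusted p = 0.000917), while 6 were not called. Neither list moved one way, with medians of −0.02 and −0.05.

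Zmat4 had relatives on both sides. Its kind of zinc finger gave 8 tested genes, of which 3 rose and 2 fell. Without no-auxin replicate 2 only 1 rose, and without no-auxin replicate 1 or auxin replicate 2 only 1 fell. Zmat2, a component of the spliceosome, fell from 103 and 98.3 to 78.8 and 80.7 CPM (log2 fold change −0.34, edgeR adjusted p = 0.00244). Zfp385b rose from 0.492 and 0.339 to 1.47 and 1.37 CPM (1.75, SE 0.42, edgeR adjusted p = 0.00907), a call lost without no-auxin replicate 2 (adjusted p = 0.0764), where Zfr was lost as well (0.0790). Zfp385a lost its call without no-auxin replicate 1 (adjusted p = 0.0850), and Matr3 there (0.110) and without auxin replicate 2 (0.106). Zmat3, a p53 target gene, was at 192 and 197 CPM without auxin and 179 and 190 CPM with auxin and was not called (edgeR adjusted p = 0.310).

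Some of the 9 are very long genes. On mm10, Dab1 runs over 1125486 bp (chromosome 4, 103619359 to 104744844, plus strand, 25 merged exon blocks). Enox1 covers 564998 bp (chromosome 14, 77156763 to 77721760, plus strand, 19 blocks) and Zmat4 520567 bp (chromosome 8, 23636019 to 24156585, plus strand, 11 blocks). These 3 were at the 99.9th, 99.5th and 99.3rd percentile of span among tested genes. Adam23 covers 150625 bp (chromosome 1, 63445891 to 63596515, plus strand, 28 blocks), at the 93.3rd percentile.

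The other 5 had ordinary or short spans. Manba covers 85794 bp (chromosome 3, 135485611 to 135571404, plus strand, 21 blocks) and Esrp1 54851 bp (chromosome 4, 11331933 to 11386783, minus strand, 17 blocks). Chrna9 covers 42406 bp (chromosome 5, 65934921 to 65977326, plus strand, 10 blocks) and Mkrn1 22659 bp (chromosome 6, 39397804 to 39420462, minus strand, 10 blocks). Hdhd1a is annotated as a single exon of 1044 bp (chromosome 18, 50567656 to 50568699, minus strand). Genes of at least 400 kb make up 1.23% of tested genes and 3 of the 9. Of 166 such genes 34 fell (20.5%, against 14.5% of all tested genes) and 19 rose (11.4%, against 13.0%). Their median log2 fold change was −0.08. Enox1, Dab1 and Zmat4, chosen for their falls, are 3 of the 34. The choice thus adds to that share, and its excess is not read as a result. Of 1676 genes of at least 100 kb, with Enox1, Dab1, Zmat4 and Adam23 among them, 13.1% fell and 14.8% rose.

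The genes beside the 9 were set against all tested genes as well. The nearest tested gene on each side gave 18 neighbours, of which 5 fell (27.8%, against 14.5% of all tested genes), 3 rose (16.7%, against 13.0%) and 10 were not called. Their log2 fold changes ran from −0.76 to 0.71, with a median of −0.17. The number that fell was 3 with DESeq2 or on leaving out no-auxin replicate 1 or auxin replicate 2, and the number that rose was 5 without auxin replicate 2. Both neighbours fell at 2 of the 9 loci, those of Adam23 and Manba.

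At Adam23, Zdbf2, an imprinted gene 131 kb away on the same strand, fell from 214 ± 2.53 to 126 ± 3.85 CPM (SD, n = 2; edgeR adjusted p = 4.29e-06, log2 fold change −0.76, SE 0.05). On the other side, Fastkd2, 134 kb away, fell by 0.33 on the log2 scale (edgeR adjusted p = 0.0214), a call lost without no-auxin replicate 1 (adjusted p = 0.172), without auxin replicate 2 (0.0923) and with DESeq2 (0.0546). At Manba, the nearer neighbour was Nfkb1, a subunit of NF-κB, 13.3 kb away, which fell from 42.9 ± 3.56 to 32.1 ± 0.703 CPM (SD, n = 2; log2 fold change −0.42, edgeR adjusted p = 0.00470). Ube2d3, a ubiquitin-conjugating enzyme 18.4 kb away, fell by 0.33 on the log2 scale (edgeR adjusted p = 0.00199). No neighbour of Adam23 or Manba had a log2 fold change as far from 0 as the gene itself. Adam23 and Manba were chosen for their falls, so this gap follows from the choice and is not read as a result.

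At 3 other loci a neighbour went the opposite way. Prkaa2, a catalytic subunit of AMPK 285 kb from Dab1, rose from 21.2 ± 1.81 to 34.7 ± 1.42 CPM (SD, n = 2; log2 fold change 0.71, edgeR adjusted p = 0.000413). Sfrp1, a secreted Wnt antagonist 186 kb from Zmat4, rose by 0.30 on the log2 scale (edgeR adjusted p = 0.00145). N4bp2, 105 kb from Chrna9, rose by 0.23 (edgeR adjusted p = 0.0157), a call lost without either library without auxin (adjusted p = 0.0890 and 0.0666), without auxin replicate 1 (0.0538) and with DESeq2 (0.0879). At Enox1 a neighbour moved with it: Dnajc15, 104 kb away, fell by 0.51 (edgeR adjusted p = 0.0179), a call lost without no-auxin replicate 1 (adjusted p = 0.103), without auxin replicate 2 (0.0777) and with DESeq2 (0.0844). Neither neighbour of Hdhd1a, Mkrn1 or Esrp1 was called, and those of Hdhd1a were far off, Hsd17b4 at 371 kb and Srfbp1 at 1897 kb. Mkrn1 also overlaps Gm10244 on the other strand, which had at most 13 counts. The counts used strand, so its reads were kept apart.

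In control cells the 9 genes fell into 3 groups by H3K27me3. A peak within 1 kb of the annotated 5′ end was present in ChIP-seq for 3 of the 9 (9.09% of the 32968 genes placed on 1 chromosome and strand) and in CUT&RUN for 4 of the 9 (13.2%). Peaks of both assays marked the 5′ ends of Dab1, Esrp1 and Zmat4 (5.95% of placed genes), for which the mark had part in the choice. Chrna9 had a CUT&RUN peak alone. The remaining 5 had no peak at the 5′ end in either assay. Over the gene body, ChIP-seq peaks lay in 4 of the 9 (16.9% of placed genes) and CUT&RUN peaks in 4 of the 9 (23.6%). Among the 13516 genes both tested and placed, as all 9 are, the shares were lower. At the 5′ end they were 6.91% in ChIP-seq, 7.65% in CUT&RUN and 3.79% in both. In the body they were 15.7% in ChIP-seq and 21.2% in CUT&RUN. At a −log10 q of at least 2, fewer of the 9 were marked: 1 by ChIP-seq at the 5′ end (4.60% of placed genes) and 1 in the body (10.2%), Zmat4 in each, and 2 by CUT&RUN at the 5′ end (4.55%), Dab1 and Esrp1. Within 500 bp of the start, ChIP-seq marked only Zmat4 (6.08% of placed genes) and CUT&RUN marked Chrna9, Dab1 and Zmat4 (10.1%).

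For context, genes with peaks of both assays at the 5′ end were more often higher than lower with auxin. Of 512 such genes tested, 3.52% fell and 18.2% rose. The 18 that fell include Dab1, Esrp1 and Zmat4. These 3 were chosen for their falls and in part for the mark, so nothing is read from their place there. Of 12060 tested genes with no peak at the 5′ end, 15.6% fell. Only 512 of the 1963 placed genes marked by both assays were tested, and a gene can pass the filter through the auxin libraries alone. A gene near the floor also has little room to be called lower. The shares were not compared at like RNA level, so their difference is not read as an effect of the mark. Each peak list came from a single sample, so the mark was not compared between conditions, and fold enrichment and −log10 q are the authors' own values for each peak.

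Zmat4 carried the mark most plainly in ChIP-seq. It had 2 ChIP-seq peaks at its 5′ end, 403 bp and 709 bp wide, with fold enrichments of 3.49 and 3.61 and −log10 q of 2.02 and 2.16. A CUT&RUN peak of 3170 bp spanned both (fold enrichment 3.23, −log10 q 1.62). Over the whole gene it had 15 ChIP-seq and 31 CUT&RUN peaks, which covered 1.22% and 6.08% of its length. They were denser toward the start: 9 of the 15 and 16 of the 31 had their centre in the first 25% of the gene.

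At Dab1, CUT&RUN gave more and wider peaks than ChIP-seq. The assays differ in method and titled time, and cutoff and depth are unknown, so their strength was not compared. The CUT&RUN peak at the 5′ end was 1862 bp wide and reached from 826 bp before to 1035 bp after the annotated start. Its fold enrichment of 4.16 and −log10 q of 3.32 were the highest of CUT&RUN at any of the 9 starts. The ChIP-seq peak there was 294 bp wide and lay 653 to 946 bp inside the gene. Along the gene there were 64 CUT&RUN peaks, with 18, 17, 13 and 16 in successive stretches of 25% of its length. Its 9 ChIP-seq peaks had 7 in the first such stretch and 2 in the second. Only 2 of the 9 ChIP-seq peaks overlapped a CUT&RUN peak.

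Esrp1 was the most covered. Its 8 CUT&RUN peaks took 26.4% of the gene body, and the widest was 4593 bp. The one that entered the 1 kb window was 2440 bp wide and lay 900 to 3339 bp inside the gene, so it did not cover the 5′ end itself (fold enrichment 3.27, −log10 q 2.07). The ChIP-seq peak was 631 bp wide and began 608 bp inside (3.12, 1.42). At Chrna9 the single CUT&RUN peak was 1787 bp wide, lay 354 to 2140 bp inside the annotated start and was among the weaker ones (2.93, 1.17).

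Of the 5 genes with no peak at the start, only Enox1 had a peak in its body. Enox1 had 1 ChIP-seq peak of 289 bp, 17.9 kb inside the gene (fold enrichment 3.10, −log10 q 1.43), and its nearest CUT&RUN peak was 747 kb from the start. Hdhd1a, Adam23, Manba and Mkrn1 had none in either assay. Their nearest CUT&RUN peaks were 213, 78.9, 109 and 149 kb away and their nearest ChIP-seq peaks 550, 92.5, 656 and 151 kb away.

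**Figure D4:**
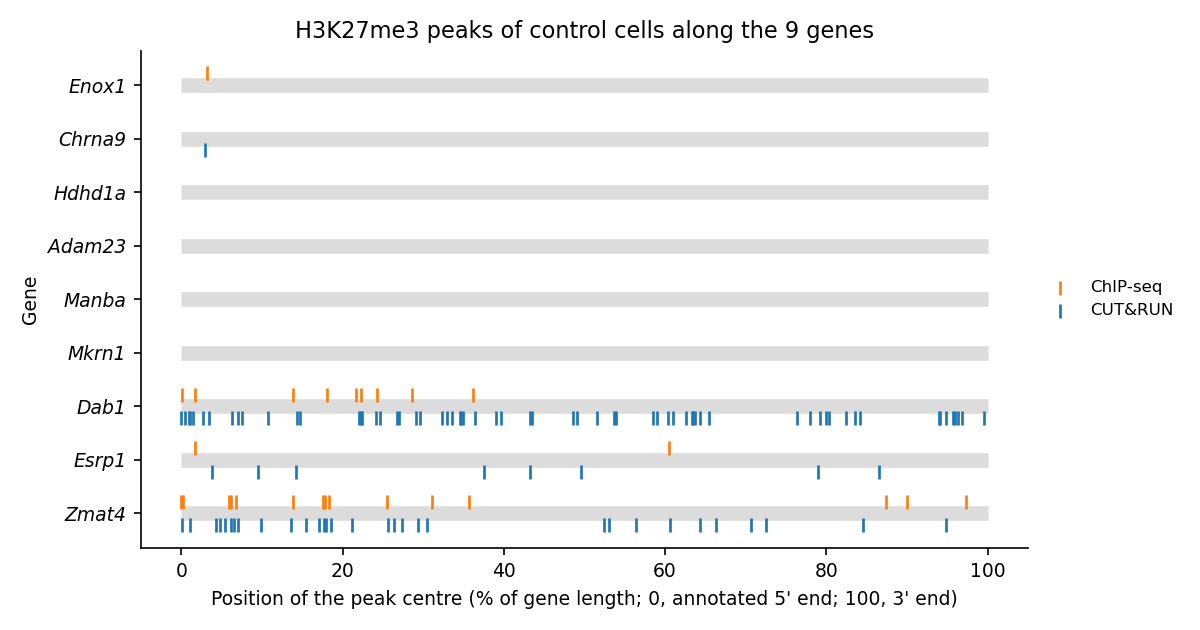
Centres of the H3K27me3 peaks of control cells along each gene, as a percentage of gene length from the annotated 5′ end, with ChIP-seq ticks above and CUT&RUN ticks below each grey bar. Dab1 and Zmat4 carry 64 and 31 CUT&RUN peaks, and the bars of Hdhd1a, Adam23, Manba and Mkrn1 are empty.

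Long genes differed widely in their number of peaks. Among 165 tested and placed genes of at least 400 kb, the median was 9 CUT&RUN peaks, or 1.52 per 100 kb, and 32 (19.4%) had none. Enox1 was one of the 32. Dab1 (5.69 per 100 kb) and Zmat4 (5.96) stood at the 77.6th and 78.8th percentile. In ChIP-seq 44.2% of these long genes had no peak and the median was 1, against 9 for Dab1 and 15 for Zmat4, whose density was at the 89.1st percentile.

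**Figure D5:**
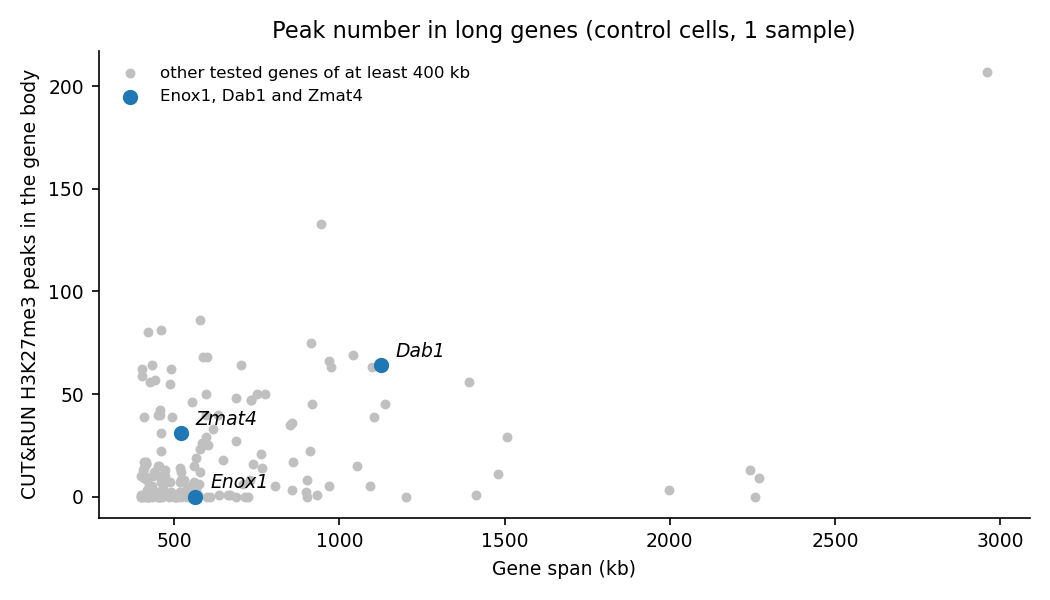
CUT&RUN H3K27me3 peaks in the gene body against gene span in kb, for tested genes of at least 400 kb in 1 control sample. Enox1 lies at 0 peaks, and Zmat4 (31) and Dab1 (64) lie above the median of 9.

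The sequences printed above differed widely in CpG content. Over 32851 RefSeq promoter windows, taken here as the 250 bases before the start, the median was 6 CpG, an observed over expected CpG ratio of 0.373 and 52.4% GC. The Enox1 window held 33 CpG at a ratio of 1.19 (99.3rd percentile) and 68.8% GC. The Adam23 window held 27 CpG at 0.901 (88.4th percentile) and 70.4% GC. Neither had a peak within 1 kb. Manba (19 CpG, ratio 0.752) and the start of Mkrn1 with more CpG (35, ratio 1.08) were CpG-rich and unmarked too.

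Dab1 has 2 RefSeq starts of very different composition. The first, 141 bp inside the annotated 5′ end, had 10 CpG in its window (ratio 0.545, 62.4th percentile) and lay within 1 kb of peaks of both assays. The second, 748179 bp inside, had 40 CpG (ratio 1.09, 97.5th percentile) and 78% GC but no peak within 1 kb. Only the 109 bases of the first window that lie before the annotated start are printed, with 3 CpG. The RefSeq start of Chrna9 is 32203 bp inside its annotated 5′ end, and its window had 5 CpG (ratio 0.325, 45.2nd percentile), with no peak within 1 kb. The CUT&RUN peak of Chrna9 thus lies at the annotated start and not at the RefSeq start.

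Short motifs were searched on both strands. TATAAA was in none of the 8 windows, against 12.4% of all windows. GGGCGG was in those of Enox1, Manba, both Mkrn1 starts and the inner Dab1 start (32.7% of all). CCGGAA was in the Enox1 window and the inner Dab1 window (12.0%), TGACG in 1 Mkrn1 window (17.8%), and GCGTG in the windows of Enox1, Adam23, Manba and both Mkrn1 starts (28.2%). A match is a run of letters and nothing more.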

How the data were processed

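The 9 genes, the gene lists and the tests were chosen with earlier results of these data known. Per the file headers, the authors made the fragment counts per gene name with featureCounts 1.6.3, over mm10 exons and with strand (reverse). The submitters' processing notes name STAR 2.6.1d, Bowtie2 2.4.1, MACS2 2.1.1 and the builds mm10 and dm6. Per the labels' protocols, RNA was polyadenylated and read as 100 bp pairs. For every broad peak the deposited lists hold a score, a fold enrichment and −log10 values of p and q, from a single sample. The control and the cutoff used for them are not stated in the sources at hand, and read depth is unknown.

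edgeR 4.0.16 (R 4.3.3) compared auxin with no auxin over all genes passing its default filter: TMM factors, the two-sided quasi-likelihood test, Benjamini-Hochberg adjustment, a threshold of 0.05 and no block. Standard errors are the log2 fold change, sign dropped, divided by the root of F. Replicates differed beyond counting noise, with a chi-square of 4.08 per degree of freedom without auxin and 11.9 with auxin. The script was tested on simulated data. A gene's 5′ end and body come from the coordinates in the count table, a peak counted from 1 bp of overlap within 1 kb, and nearest profiles used log2 CPM with a prior count of 2.

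Named genes are the 9, the called genes with the smallest p of each list and some of its uncalled genes, the nearest tested gene on each side, the 2 nearest profiles, and the genes ranked around the first and last of the 9. A few genes that this rule names are not reported here. Tmem35a and Hdhd5 were matched by other symbols. Alternatives were RLE and upper-quartile factors, a filter of 1 read, a replicate block, each library left out, DESeq2 1.42.0, a −log10 q of 2, windows of 500 and 2500 bp and 200 bp of overlap.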

Additional observations from a re-analysis of the deposited data

How the results depend on the processing

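Each of the 9 genes was lower with auxin under all 9 alternatives to the edgeR fit. The log2 fold change ranged from −3.49 to −3.02 for Enox1, −3.37 to −2.53 for Chrna9, −3.33 to −2.31 for Hdhd1a and −0.96 to −0.92 for Mkrn1, and their median from −1.63 to −1.52 when each library was left out. Over all genes, 2972 rose and 3177 fell with a replicate block, 877 rose and 1438 fell with DESeq2, and 2024 rose and 1698 fell with upper-quartile factors, which turned the balance of 1759 and 1964. With each library left out in turn 1225 to 1705 rose and 1257 to 1914 fell. Among the neighbours, 5 rose and 9 fell with the replicate block, 3 fell with DESeq2, and leaving out libraries gave 2 to 5 that rose and 3 to 6 that fell. The balance of neighbours turned without auxin replicate 2, to 5 that rose and 3 that fell. No log2 fold change of the 9, or of a called list or neighbour gene, changed sign. The cause of these shifts was not tested. The replicate numbers are not stated to mark a shared batch. Deviations of same-numbered libraries correlated at 0.297 over 13522 genes and at 0.460 over the 8944 genes above 10 CPM, but there are only 2 pairs. The lists gave 44 that rose and 17 that fell with the block, against 30 and 13. Left-out libraries gave 26 to 33 that rose and 9 to 13 that fell.

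At a −log10 q of at least 2, ChIP-seq marked 1 of the 9 at the 5′ end and 1 in the body, and CUT&RUN 2 at the 5′ end. Within 500 bp of the start, ChIP-seq marked 1 and CUT&RUN 3. The shares of all placed genes fell as well, to 4.60%, 10.2%, 4.55%, 6.08% and 10.1% in that order. Depth limits Hdhd1a, Chrna9 and Esrp1 most, with 3 to 17 counts in each auxin library.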
